A study of Homo sapiens with 24 samples.

Results

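The 46 genes described here have symbols of subunits of the phosphoprotein phosphatase family: PPP1 to PPP6, followed by C for a catalytic or R for a regulatory subunit. They were taken by symbol from the 9822 genes of the deposited count table, with PPP2R3A left out by the same rule. The rule reads symbols and no measured value, though it was set with earlier results of these data known. The set holds 8 catalytic subunit genes, 37 regulatory subunit genes and PPP4R1L, a transcribed pseudogene that encodes no subunit and was kept out of both classes. All 46 passed the filter on low counts, which removed 0 genes. The table itself holds only genes above a low level, since no gene averaged under 32.04 counts. PPP1CB, PPP2CA and PPP4C, the other catalytic genes with symbols of PPP1 to PPP6, were not analysed here.

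Enzymes of this family remove phosphate from serine and threonine, the reverse of the reaction that most protein kinases carry out. A small number of catalytic subunits is shared among many regulatory subunits, which bring the enzyme to a place or substrate or hold it inactive. PP1 works with targeting subunits and inhibitors, PP2A is built from a catalytic, a scaffold and an exchangeable B subunit, and calcineurin joins a catalytic A chain to a calcium-binding B chain. In T cells, calcineurin is the calcium-activated enzyme that releases NFAT transcription factors into the nucleus, and it is the target of ciclosporin and tacrolimus.

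Gene expression was measured by RNA sequencing in MOLT4, an established human T-cell acute lymphoblastic leukaemia line. Cells received SK-3-91, named in the study's title as a pan-kinase degrader, a compound that marks kinases for destruction, or DMSO, the solvent control, and were collected after 1, 4 or 8 h. Each of the 6 groups has 4 libraries, all from this 1 line; the labels used here name no dose of SK-3-91. The labels do not state whether the 4 replicates of a group were cultured separately, so every p-value reflects the variation of these libraries alone and possibly only technical variation.

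Totals of counted reads ranged from 13.567 to 14.626 megareads in the DMSO libraries and from 6.863 to 13.647 megareads in the treated ones, whose group means were 96.2%, 74.7% and 58.3% of the DMSO means at 1, 4 and 8 h. The first principal component of the libraries held 81.6% of the variance. Of 15 T-lineage marker genes, 12 were measured, CD3E, CD7 and LCK among them. Their summed level was 2852 to 3275 CPM (a gene's counts over the library's TMM-scaled total, as edgeR's cpm gives them) over the DMSO libraries and 3120 to 4463 CPM over the treated ones. Of the B-cell list only CD79A and BLK were measured (2 of 6, with a summed level of 89.4 to 139.5 CPM), of the myeloid list only CD68 (1 of 7, 1.42 to 7.75 CPM), of the fibroblast and endothelial list only PECAM1 (1 of 5), and none of the 5 erythroid and 5 epithelial markers. Fewer cells of a kind and less RNA per cell cannot be told apart in bulk samples, and TMM scaling makes every fold change relative to the other genes.

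Most subunit genes responded to SK-3-91, at about the rate of the whole table, and in both directions. At 1 h, 15 of the 46 genes rose and 11 fell (adjusted p under 0.05, edgeR quasi-likelihood test, Benjamini-Hochberg over all genes), which is 56.5% called against 54.3% of all genes (24.9% higher and 29.4% lower). At 4 h, 17 rose and 22 fell (84.8% against 87.9%, of which 42.0% higher and 45.9% lower), and at 8 h, 19 rose and 23 fell (91.3% against 89.4%, of which 41.3% higher and 48.1% lower). These shares lie near the background and are not particular to the subunit genes. Scaling moves the split: with library totals alone, 11 genes were called higher and 12 lower at 1 h, 11 and 29 at 4 h, and 12 and 31 at 8 h, and the median of all genes shifted by -0.02, -0.30 and -0.43 on the log2 scale; RLE factors gave 18 higher and 8 lower at 1 h.

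The classes are compared by counts and medians, and the difference between them was not tested. At 1 h, 3 of 8 catalytic genes rose (PPP1CA, PPP3CB and PPP5C) and 0 fell in edgeR's test, with 1 lower at an unadjusted p under 0.05 and 0 in DESeq2, while 12 of 37 regulatory genes rose and 10 fell. The corresponding counts at 4 h were 2 higher and 3 lower of 8, against 15 higher and 19 lower of 37. By 8 h, 3 catalytic genes had risen and 4 had fallen, and 16 regulatory genes had risen and 19 had fallen. The shares over all genes were 24.9%, 42.0% and 41.3% higher and 29.4%, 45.9% and 48.1% lower at 1, 4 and 8 h. With library totals alone the sign at 8 h turned for PPP1CA and PPP1CC (-0.19 and -0.25). It also turned for the regulatory genes PPP1R8, PPP2R3C, PPP2R5E and PPP4R3B.

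The size of the response was similar in both classes at 1 h and somewhat larger in regulatory genes later. The median absolute log2 fold change of the catalytic genes was 0.11, 0.26 and 0.57 at 1, 4 and 8 h, that of the regulatory genes 0.14, 0.48 and 0.67, and that of all genes 0.16, 0.62 and 0.81. Signed medians stayed close to the table's: -0.01, -0.002 and -0.18 for catalytic genes, 0.04, -0.12 and -0.17 for regulatory genes, and 0.01, -0.05 and -0.11 for all genes. Changes of at least 2-fold were found in 0 genes upward and 2 downward at 1 h (0.0509% and 3.25% of all genes), 3 and 3 at 4 h (9.20% and 18.2%), and 8 and 4 at 8 h (16.8% and 23.5%). Only PPP2CB and PPP3CB among the catalytic genes passed 2-fold at 8 h, in opposite directions. Without the 7 members given below as uncertain, a comparison chosen after seeing the data, the catalytic medians were -0.07, -0.08 and -0.27 and the regulatory medians 0.01, -0.30 and -0.22; the regulatory value at 4 h moved most.

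**Figure D1:**
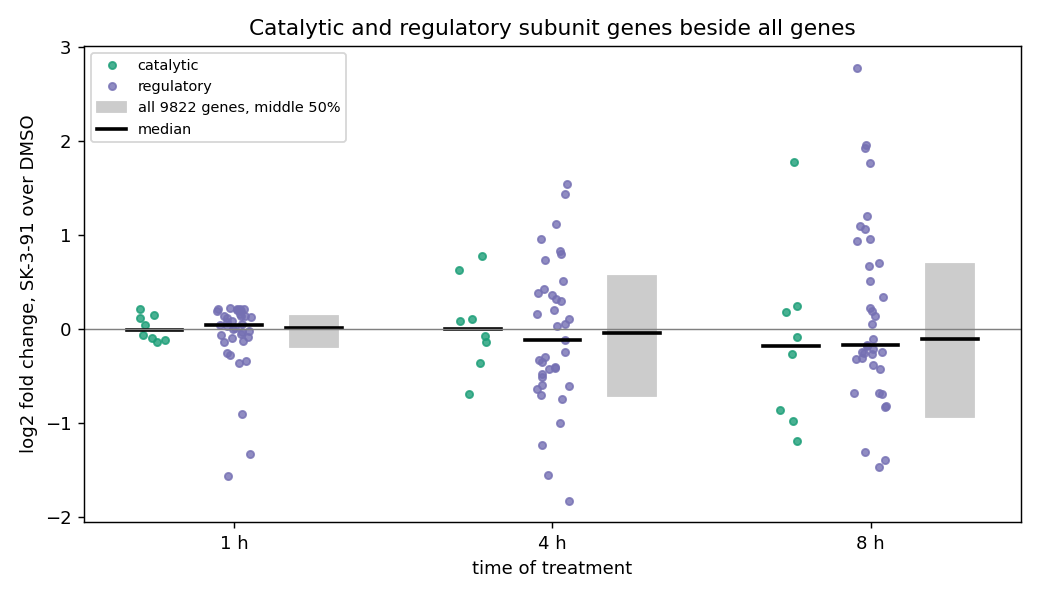
Log2 fold change of SK-3-91 over DMSO (vertical axis) at 1, 4 and 8 h for the 8 catalytic (green) and 37 regulatory (violet) subunit genes, 1 point per gene, beside the middle 50% of all 9822 genes (grey); black lines are medians. Both classes spread around 0 and widen with time, from -1.57 to 0.22 for regulatory genes at 1 h to -1.47 to 2.78 at 8 h.

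**Figure D2:**
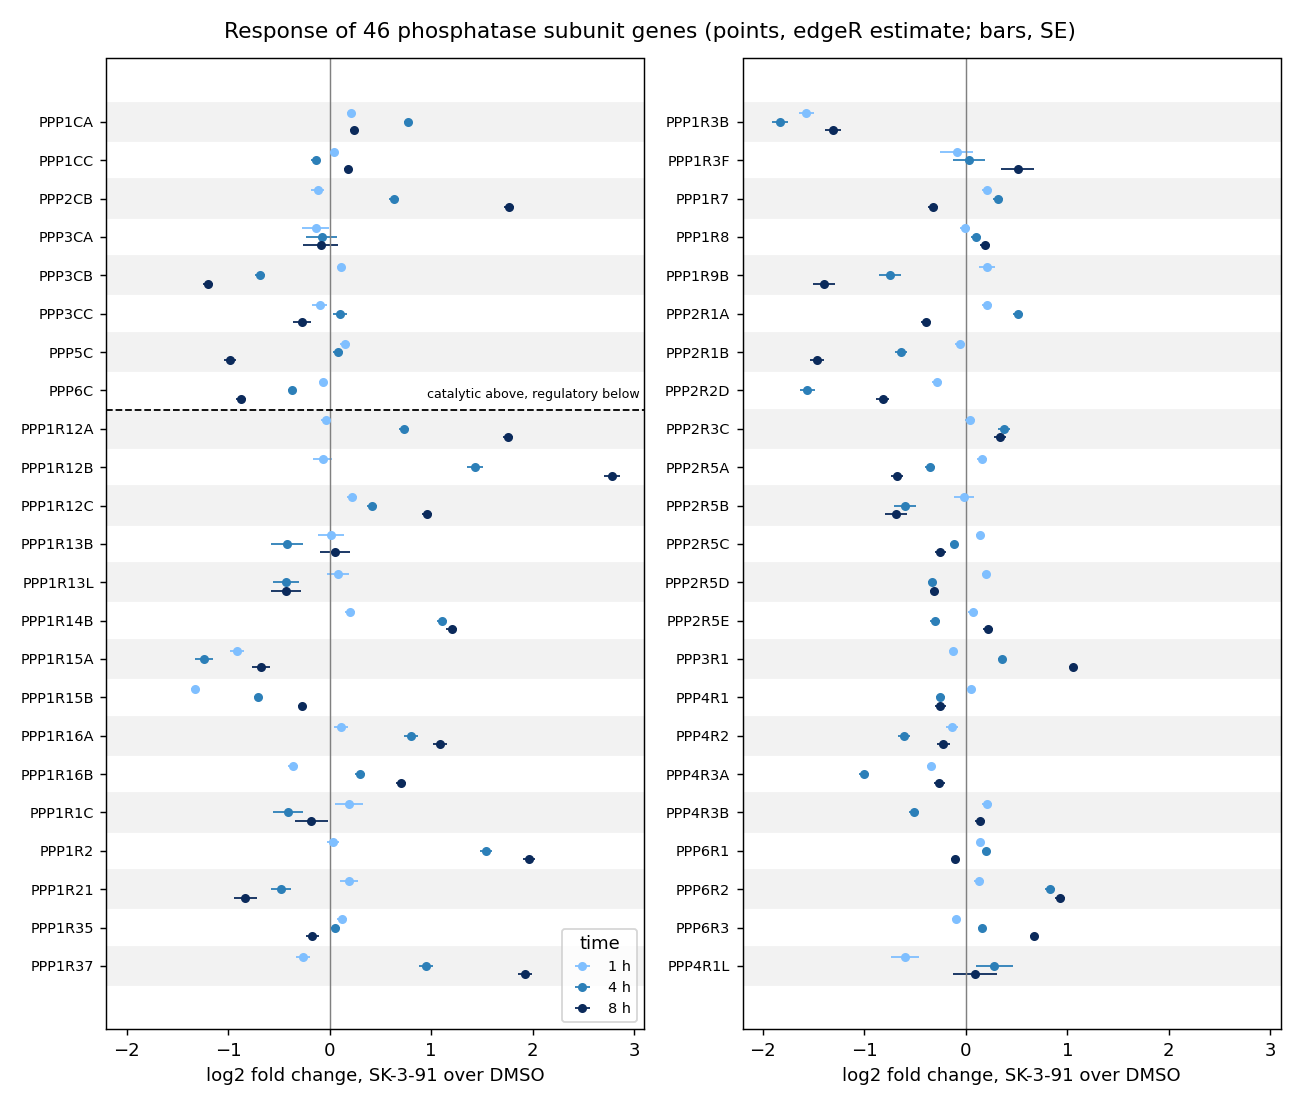
Log2 fold change (horizontal axis, points) with its standard error (bars) for each of the 46 genes at 1 h (light), 4 h (mid) and 8 h (dark blue), catalytic genes above the dashed line and the pseudogene PPP4R1L last. PPP1R12B reached the highest value, 2.78 at 8 h, and PPP1R3B the lowest, -1.83 at 4 h.

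PP1 catalytic genes had the highest mean levels of the set. Per kilobase of the deposited gene width, its catalytic gene PPP1CC averaged 166.9 ± 5.67 CPM per kb and PPP1CA 160.5 ± 10.0 CPM per kb over the 12 DMSO libraries (SD, n = 12), ranks 1 and 2 of the 46. These neighbours overlapped, at 158.2 to 176.2 and 144.8 to 182.2 CPM per kb, and their order turned with the length of the longest annotated transcript in place of the width (172.9 and 226.0). The PP6 subunit gene PPP6R1 came next at 147.4 ± 4.90 CPM per kb. Its range, 138.9 to 158.1 CPM per kb, overlapped that of PPP1CA. PPP3CA was near the end, rank 45, at 0.854 ± 0.103 CPM per kb. The median level was 28.0 CPM per kb over the 8 catalytic genes, 18.9 over the 37 regulatory genes and 12.1 over all genes.

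PPP1CA, which encodes the alpha catalytic subunit of PP1, peaked at 4 h. Its level at 4 h was 315.6, 322.7, 337.9 and 338.2 CPM in the DMSO libraries and 556.3, 562.7, 546.5 and 575.7 CPM in the treated ones, which do not overlap. Its log2 fold changes were 0.21 ± 0.04, 0.77 ± 0.04 (adjusted p = 1.7e-19) and 0.24 ± 0.04 at 1, 4 and 8 h, and library totals alone gave -0.19 at 8 h (± is the standard error of an edgeR estimate). The fall of the response between 4 and 8 h was called (-0.52 ± 0.06, adjusted p = 1.4e-09). At 8 h the treated values were 416.9, 422.0, 460.9 and 379.1 CPM against 348.7, 341.3, 346.6 and 378.6 CPM, so the lowest treated library lay just above the highest control. PPP1CA is given as uncertain, because 26.9% of its exon bases lie opposite exons of other genes, chiefly CARNS1. The strand setting of the counting is not known. CARNS1 itself, at a mean of 3.84 CPM in DMSO at 1 h, had log2 fold changes of -0.04, 1.20 and 1.72; its part in the PPP1CA values was not tested.

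PPP1CC, the gamma catalytic subunit of PP1, dipped at 4 h and was higher at 8 h. Its 4 h values were 432.6, 457.3, 433.8 and 430.1 CPM in DMSO and 385.8, 394.4, 407.0 and 404.2 CPM with SK-3-91, a log2 difference of -0.14 ± 0.04 (adjusted p = 7.7e-04). At 8 h they were 446.0, 450.3, 467.1 and 428.0 against 516.7, 501.3, 480.7 and 524.4 CPM, a difference of 0.18 ± 0.04 (adjusted p = 4.6e-05) that turned to -0.25 with library totals alone. Neither set of libraries overlaps, though both changes are small.

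PPP1CA made up a larger share of the summed PPP1CA and PPP1CC level at 4 h. In CPM per kb that share was 47.4% to 50.1% in DMSO and 63.1% to 64.8% in treated libraries at 4 h, and 48.6% to 53.0% against 48.0% to 55.0% at 8 h, where the groups overlap.

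PPP2CB, the beta catalytic subunit of PP2A, rose more than any other catalytic gene at 8 h. At 4 h it measured 53.1, 55.2, 49.3 and 51.1 CPM in DMSO and 83.5, 76.4, 76.5 and 86.8 CPM in treated libraries. At 8 h the values were 49.4, 55.8, 53.3 and 46.6 against 176.5, 174.6, 167.1 and 181.5 CPM. The treated libraries lie wholly above the controls at both times: the log2 fold changes were 0.63 ± 0.05 (adjusted p = 7.4e-14) and 1.77 ± 0.05 (3.41-fold, adjusted p = 3.1e-29), after -0.12 ± 0.06 at 1 h (adjusted p = 0.08), and the response grew by 1.14 ± 0.08 from 4 to 8 h (adjusted p = 1.8e-16).

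Calcineurin's catalytic genes went the other way or did not pass the test. PPP3CB, the A-beta chain and the main calcineurin catalytic gene of these cells, measured 87.9, 86.5, 87.0 and 84.9 CPM in DMSO and 53.4, 52.7, 56.5 and 52.2 CPM with SK-3-91 at 4 h. At 8 h it measured 86.8, 87.8, 86.1 and 84.0 against 38.2, 32.8, 42.8 and 37.5 CPM. The treated libraries are all far below the controls, with log2 fold changes of -0.69 ± 0.05 (adjusted p = 1.5e-16) and -1.20 ± 0.05 (2.29-fold lower, adjusted p = 8.6e-23). At 1 h the gene was slightly higher, 0.11 ± 0.04 (adjusted p = 0.043), a call lost when DMSO replicate 1, 3 or 4 or treated replicate 1 or 3 was left out (0.08 to 0.11).

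PPP3CC, the A-gamma chain, fell at 8 h, with 19.6, 18.1, 17.1 and 18.6 CPM in DMSO and 16.6, 14.5, 14.9 and 14.9 CPM in treated libraries (log2 fold change -0.27 ± 0.09, adjusted p = 0.0044; -0.18 and not called in DESeq2). At 4 h its values, 20.7, 17.8, 19.0 and 17.9 against 19.8, 19.5, 18.3 and 23 CPM, overlapped (0.10 ± 0.07, adjusted p = 0.21). PPP3CA, the A-alpha chain, was called at no time, the only such member: its log2 differences were -0.14 ± 0.13, -0.08 ± 0.15 and -0.09 ± 0.17 at a mean of 3.60 to 4.71 CPM, a level that leaves intervals as wide as -0.44 to 0.25 at 8 h.

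PPP5C encodes an enzyme whose helical repeats bind HSP90 and which carries its catalytic and regulatory parts in 1 chain. In edgeR's test it was not called at 4 h and was lower at 8 h. The 4 h values were 118.5, 118.0, 122.9 and 122.3 CPM in DMSO and 134.1, 135.0, 123.7 and 116.0 CPM in treated libraries, an overlap (0.08 ± 0.05, adjusted p = 0.13, -0.22 with library totals alone, and past the threshold at 0.12 in DESeq2 and without treated replicate 4). By 8 h they were 116.8, 125.8, 116.1 and 129.7 against 67.4, 62.4, 62.5 and 56 CPM, a log2 fold change of -0.98 ± 0.06 (adjusted p = 2.1e-19). The step between 4 and 8 h, -1.05 ± 0.08 (adjusted p = 1.7e-15), was the largest decrease of the response in that interval among the 46 genes. At 1 h PPP5C was called higher (0.15 ± 0.05, adjusted p = 0.0095), but not without treated replicate 1 (0.12).

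PPP6C, the catalytic subunit of PP6, fell at 4 h and further at 8 h, after -0.07 ± 0.04 at 1 h. Its values were 179.0, 187.4, 179.7 and 167.6 CPM in DMSO and 133.6, 139.4, 143.5 and 135.6 CPM in treated libraries at 4 h (-0.37 ± 0.04, adjusted p = 2.4e-10). At 8 h they were 173.9, 172.7, 178.0 and 174.4 against 95, 87.5, 102.7 and 99.5 CPM (-0.87 ± 0.05, adjusted p = 1.6e-20). No treated library reached a control at either time.

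**Figure D3:**
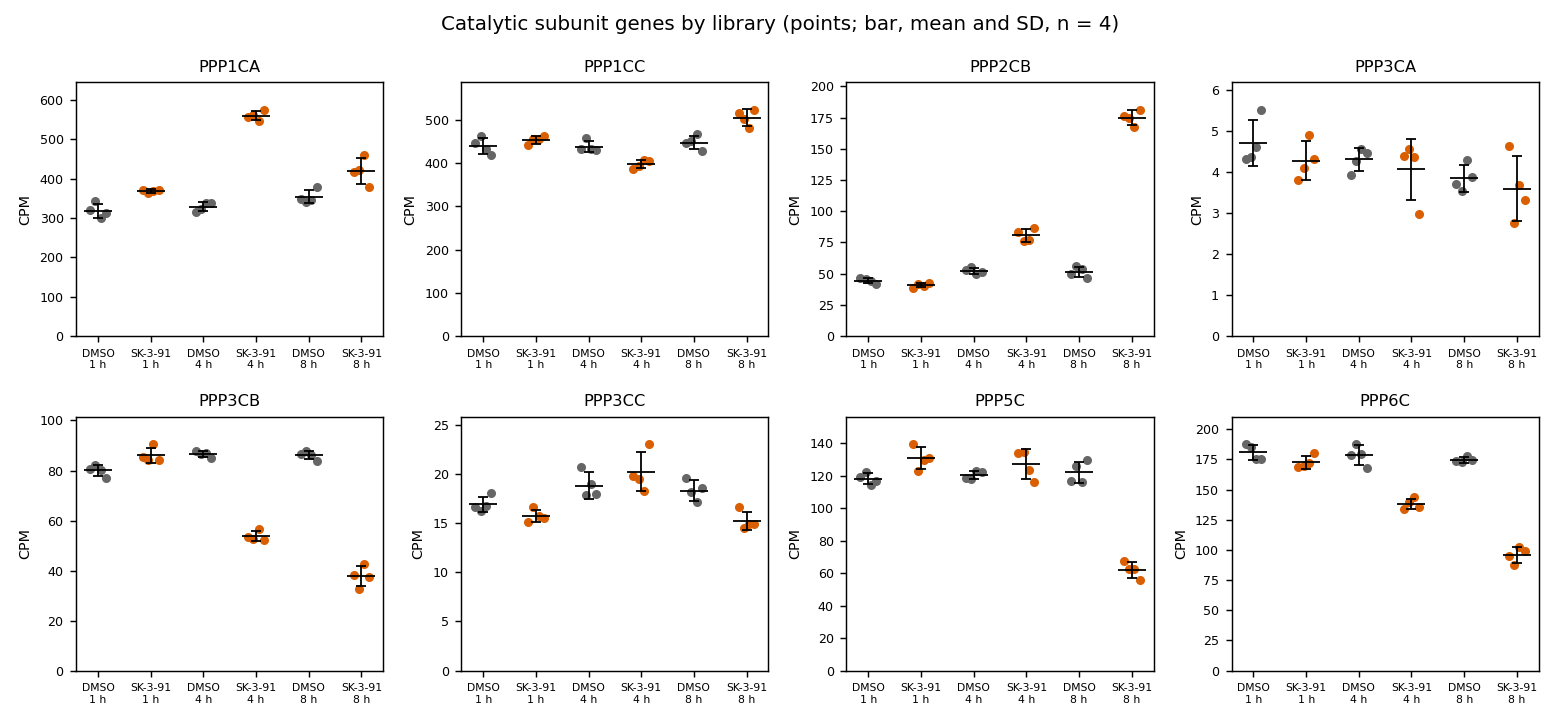
CPM (vertical axis, from 0) of the 8 catalytic subunit genes in each library (points) by group, DMSO in grey and SK-3-91 in orange, with mean and SD (bars, n = 4). At 8 h PPP2CB lies at 167 to 182 CPM in treated libraries against 46.6 to 55.8 CPM in DMSO, while PPP3CB, PPP5C and PPP6C lie below their controls.

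The largest decreases at 1 h were in PP1 targeting genes. PPP1R3B, PPP1R15B and PPP1R15A fell at 1 h and stayed lower at 4 and 8 h; together with PPP2R2D, PPP4R2 and PPP4R3A they are the 6 members called lower at all 3 times (13.0% against 16.3% of all genes). PPP1R15A (GADD34) and PPP1R15B (CReP) both bring PP1 to the translation initiation factor eIF2alpha, the first on stress and the second at all times.

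PPP1R15B measured 197.2, 187.3, 192.4 and 181.7 CPM in DMSO at 1 h and 75.2, 77.2, 75.8 and 74.3 CPM with SK-3-91. At 4 h the treated values were 88.6, 94.7, 98.9 and 103.3 CPM against 157.6, 155.2, 159.6 and 157.4, and at 8 h 125.9, 137.9, 122.5 and 127.3 against 158.8, 159.4, 151.3 and 148.8 CPM. The gap was widest at 1 h and narrowed at each step: the log2 fold change went from -1.33 ± 0.04 (2.51-fold lower, adjusted p = 1.3e-25) to -0.71 ± 0.04 and -0.27 ± 0.04 (adjusted p = 8.7e-07). Both narrowing steps were called, at 0.62 ± 0.06 and 0.44 ± 0.06.

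PPP1R15A measured 29.3, 33.5, 30.7 and 32.5 CPM in DMSO at 1 h and 14.9, 16.8, 19.0 and 16.5 CPM in treated libraries. The 4 h values were 20.4, 22.2, 19.7 and 21.7 against 9.09, 8.09, 9.69 and 8.59 CPM, and those at 8 h 19.2, 19.4, 22 and 20 against 12.2, 13.4, 13.5 and 11.3 CPM. Unlike its partner it reached its lowest point at 4 h, with log2 fold changes of -0.91 ± 0.07, -1.24 ± 0.09 and -0.68 ± 0.09 (adjusted p = 1.8e-14, 3.8e-16 and 1.1e-08). Its level also moved in the controls, falling by 0.59 ± 0.07 on the log2 scale in DMSO from 1 to 4 h; PPP1R15B fell there by 0.27 ± 0.04.

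The 250 bases before the RefSeq start of these 2 genes are printed because both fell within 1 h, and those of PPP1R12C and PPP2R2D because, of the 35 members with a RefSeq window, they are the other 2 that hold the cAMP response element. Sequences are from RefSeq on GRCh38.p14, 5′ to 3′ on the gene's strand. Capitals mark 4 motifs on either strand: the cAMP response element, spelled TGACGTCA, the CCAAT box, the TATA box, spelled TATAAA, and the GC box, spelled GGGCGG. The regions are chr19:48872171-48872420 (plus strand) for PPP1R15A, chr1:204411818-204412067 (minus) for PPP1R15B, chr19:55117638-55117887 (minus) for PPP1R12C and chr10:131900758-131901007 (plus) for PPP2R2D.
PPP1R15A: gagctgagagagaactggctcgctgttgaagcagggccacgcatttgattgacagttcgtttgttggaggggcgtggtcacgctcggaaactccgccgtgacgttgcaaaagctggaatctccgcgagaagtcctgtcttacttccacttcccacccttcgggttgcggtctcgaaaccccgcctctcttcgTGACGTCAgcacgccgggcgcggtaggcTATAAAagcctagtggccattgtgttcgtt
PPP1R15B: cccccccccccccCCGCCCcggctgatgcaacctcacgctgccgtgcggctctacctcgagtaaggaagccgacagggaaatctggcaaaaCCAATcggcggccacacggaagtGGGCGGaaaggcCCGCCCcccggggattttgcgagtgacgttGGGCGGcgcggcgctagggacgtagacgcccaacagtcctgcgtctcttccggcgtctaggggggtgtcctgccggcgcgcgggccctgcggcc
PPP1R12C: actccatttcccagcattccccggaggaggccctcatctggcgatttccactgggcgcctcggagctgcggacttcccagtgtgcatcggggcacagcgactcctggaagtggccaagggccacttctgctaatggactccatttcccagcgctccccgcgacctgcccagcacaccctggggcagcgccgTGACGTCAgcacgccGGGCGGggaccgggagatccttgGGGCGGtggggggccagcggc
PPP2R2D: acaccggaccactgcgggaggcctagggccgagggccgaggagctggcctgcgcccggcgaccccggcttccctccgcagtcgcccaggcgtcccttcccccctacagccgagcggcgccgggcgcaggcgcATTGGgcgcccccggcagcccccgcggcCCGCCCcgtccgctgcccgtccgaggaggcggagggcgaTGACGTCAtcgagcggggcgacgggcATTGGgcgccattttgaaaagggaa

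The response element begins at -58 in PPP1R15A, -59 in PPP1R12C and -51 in PPP2R2D, counted from the start, and PPP1R15A also has the only TATAAA of those 35, at -30. PPP1R15B has neither and instead holds a CCAAT box at -159 and 4 GC boxes. Over the 35 members with a RefSeq window of 250 bases before to 50 after the start, 3 hold TGACGTCA (8.6%, against 3.5% of 8103 measured genes with a window), 1 CACGTG (2.9% against 11%), 19 CCAAT (54.3% against 37.3%), 1 TATAAA (2.9% against 4.7%) and 28 GGGCGG (80.0% against 71.7%). The 3 genes with the response element did not respond alike: PPP1R15A and PPP2R2D were lower at every time, and PPP1R12C was higher at every time. A match describes letters in the window and says nothing of binding.

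PPP1R3B, which brings PP1 to glycogen, was the member with the largest decrease at 1 and 4 h. At 1 h it measured 37.6, 34.7, 36.4 and 36.2 CPM in DMSO and 11.1, 13.0, 12 and 12.6 CPM in treated libraries, and at 4 h 36.3, 34.4, 38.2 and 33.0 against 8.57, 10.8, 10.5 and 10.0 CPM. The 8 h values were 35.4, 37.8, 39.8 and 39.6 against 13.8, 15.9, 13.6 and 17.8 CPM. Treated libraries never came near the controls, with log2 fold changes of -1.57 ± 0.07 (2.97-fold lower), -1.83 ± 0.08 (3.56-fold lower) and -1.31 ± 0.08 (2.48-fold lower; adjusted p = 2.2e-21, 4.7e-23 and 1.9e-18). The other measured glycogen-targeting gene, PPP1R3F, differed by -0.09 ± 0.16 and 0.03 ± 0.16 at 1 and 4 h and was called higher at 8 h (0.51 ± 0.16, adjusted p = 0.0038), with libraries that overlap.

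The myosin-targeting genes were higher after 1 h. By TMM scaling all 5 measured members, PPP1R12A, PPP1R12B, PPP1R12C, PPP1R16A and PPP1R16B, which bring PP1 to myosin or to membranes, were called higher at 4 h and at 8 h, as were 42.0% and 41.3% of all genes; with library totals alone PPP1R16B had -0.003 at 4 h. Their median log2 fold change was -0.04, 0.73 and 1.09 at 1, 4 and 8 h. The response was called upward in all 5 from 1 to 4 h and again from 4 to 8 h, as it was in 40.6% and 35.6% of all genes.

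PPP1R12B (MYPT2) had the largest increase of the 46 genes. Its 4 h values were 22.5, 18.8, 23.7 and 22.6 CPM in DMSO and 55.0, 54.4, 67.2 and 58.7 CPM in treated libraries, and at 8 h 20.1, 18.6, 19.1 and 19.2 against 139.4, 133.1, 107.0 and 146.1 CPM. All treated values exceed all controls, by 1.43 ± 0.08 and 2.78 ± 0.08 on the log2 scale (2.69-fold and 6.85-fold, adjusted p = 4.9e-19 and 2e-29), after -0.07 ± 0.09 at 1 h (adjusted p = 0.51).

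PPP1R12A (MYPT1), the myosin phosphatase targeting subunit of smooth muscle and many other cells, measured 124.9, 123.0, 125.8 and 110.9 CPM in DMSO and 432.4, 413.6, 390.8 and 401.3 CPM with SK-3-91 at 8 h. Its log2 fold changes were -0.04 ± 0.05, 0.73 ± 0.05 and 1.76 ± 0.05 at 1, 4 and 8 h (3.38-fold, adjusted p = 2.1e-31).

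PPP1R12C was the only gene of the group called higher at 1 h, with 82.7, 79.3, 84.6 and 80.8 CPM in DMSO and 95.3, 91.9, 96.3 and 98.3 CPM in treated libraries. Its log2 fold changes were 0.22 ± 0.05 (adjusted p = 5.8e-04), 0.42 ± 0.05 and 0.96 ± 0.05. PPP1R16B (TIMAP) started from the opposite side: 66.0, 61.9, 64.8 and 61.8 CPM in DMSO against 50.1, 50.8, 48.2 and 49.0 CPM at 1 h (-0.36 ± 0.05, adjusted p = 2.8e-08). It was then 0.30 ± 0.05 higher at 4 h and 0.70 ± 0.05 higher at 8 h. Its control level dropped by 0.75 ± 0.05 from 1 to 4 h (adjusted p = 1.7e-15), while the treated means were 49.5, 46.6 and 62.3 CPM at 1, 4 and 8 h. PPP1R16A, 0.80 ± 0.07 and 1.09 ± 0.07 higher at 4 and 8 h, is uncertain, since 52.6% of its exon bases lie opposite another annotated gene.

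Of 3 measured PP1 inhibitor genes, 2 were called at least 2-fold higher at 4 h and at 8 h, as were 9.20% and 16.8% of all genes. Both are uncertain through sequence shared with other genes. PPP1R2, inhibitor-2, measured 26.3, 25.3, 26.3 and 24.5 CPM in DMSO and 70.0, 76.4, 77.2 and 74.0 CPM in treated libraries at 4 h. At 8 h it measured 24.8, 26.3, 30.3 and 25.1 against 113.5, 98.2, 104.9 and 98.4 CPM. The groups are far apart at both times, with log2 fold changes of 1.54 ± 0.06 (2.90-fold, adjusted p = 1.3e-24) and 1.96 ± 0.06 (3.90-fold, adjusted p = 1.8e-28), against 0.03 ± 0.06 at 1 h. Of its 32-base words, 20.7% occur in other genes, chiefly PPP1R2B, which was not analysed here.

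PPP1R14B, an inhibitor of the PP1 holoenzyme, measured 81.5, 81.3, 89.2 and 88.9 CPM in DMSO and 185.0, 193.1, 179.7 and 179.0 CPM with SK-3-91 at 4 h. It was higher at all 3 times, by 0.20 ± 0.05, 1.11 ± 0.05 and 1.20 ± 0.05 on the log2 scale (adjusted p = 8.6e-04, 2.9e-23 and 1.6e-24). It shares 34.8% of its words with other genes, chiefly a pseudogene. PPP1CA, PPP1R12C, PPP1R14B and PPP6R2 are the 4 members called higher at all 3 times (8.70% against 14.7% of all genes). PPP1R1C, a relative of inhibitor-1, was lower at 4 h (-0.41 ± 0.15, adjusted p = 0.0089) and differed by -0.18 ± 0.16 at 8 h.

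Other PP1 partners moved in both directions. PPP1R37 measured 39.1, 38.4, 36.2 and 43.2 CPM in DMSO and 77.3, 71.3, 76.7 and 77.3 CPM in treated libraries at 4 h. By 8 h it measured 41.8, 37.6, 36.3 and 44.8 against 154.1, 158.9, 126.2 and 167.3 CPM. It was lower at 1 h and higher later, with log2 fold changes of -0.26 ± 0.07, 0.95 ± 0.07 and 1.92 ± 0.07 (adjusted p = 0.004, 1.2e-15 and 1.9e-26).

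PPP1R9B (spinophilin), an actin-binding scaffold, measured 28.3, 28.0, 25.9 and 29.8 CPM in DMSO and 10.7, 10.8, 8.85 and 11.7 CPM in treated libraries at 8 h. Its log2 fold change was -0.75 ± 0.11 at 4 h and -1.40 ± 0.11 at 8 h (2.64-fold lower, adjusted p = 1.3e-14). The 1 h value, 0.21 ± 0.08 (adjusted p = 0.037), comes from libraries that overlap and lost its call when any of DMSO replicates 1 to 3 or treated replicates 2 and 4 was left out (0.14 to 0.21). PPP1R21, an endosomal protein gene, measured 16.4, 16.7, 17.1 and 17.5 CPM in DMSO and 8.01, 8.00, 8.12 and 13.6 CPM in treated libraries at 8 h. Treated replicate 4 lies apart from the others yet below every control (-0.83 ± 0.11, adjusted p = 1.4e-08).

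PPP1R7 (SDS22), a nuclear PP1 partner, changed direction. It measured 56.5, 58.1, 53.0 and 56.7 CPM in DMSO and 68.7, 61.7, 61.2 and 67.1 CPM in treated libraries at 1 h. Its log2 fold changes were 0.21 ± 0.05, 0.32 ± 0.05 and -0.32 ± 0.05 at 1, 4 and 8 h (adjusted p = 2.8e-04, 8.4e-08 and 7.2e-07), and the step between 4 and 8 h was called (-0.64 ± 0.07). Of the exon bases of PPP1R7, 17.4% lie opposite exons of other genes, chiefly PASK. This share is under the 20% limit for an uncertain gene. PASK, at a mean of 65.1 CPM in DMSO at 1 h, had log2 fold changes of 0.16, 0.15 and -0.33. The part of PASK in the PPP1R7 values was not tested. PPP1R8 (NIPP1) had 0.10 ± 0.05 at 4 h (adjusted p = 0.05) and was called higher at 8 h (0.19 ± 0.05, adjusted p = 4.1e-04; -0.24 with library totals alone). Among the p53-binding ASPP genes, PPP1R13L was lower at 4 and 8 h (-0.43 ± 0.13 and -0.43 ± 0.15), and PPP1R13B at 4 h (-0.42 ± 0.16, adjusted p = 0.013), though not without treated replicate 1 (-0.34). PPP1R35, uncertain with 41.0% of its exon bases opposite another gene, had 0.12 ± 0.05 at 1 h and -0.17 ± 0.06 at 8 h, calls lost at 1 h without DMSO replicate 1 or 3 or treated replicate 1 or 3 (0.09 to 0.13) and at 8 h without DMSO replicate 4 (-0.12) and in DESeq2 (-0.07).

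**Figure D4:**
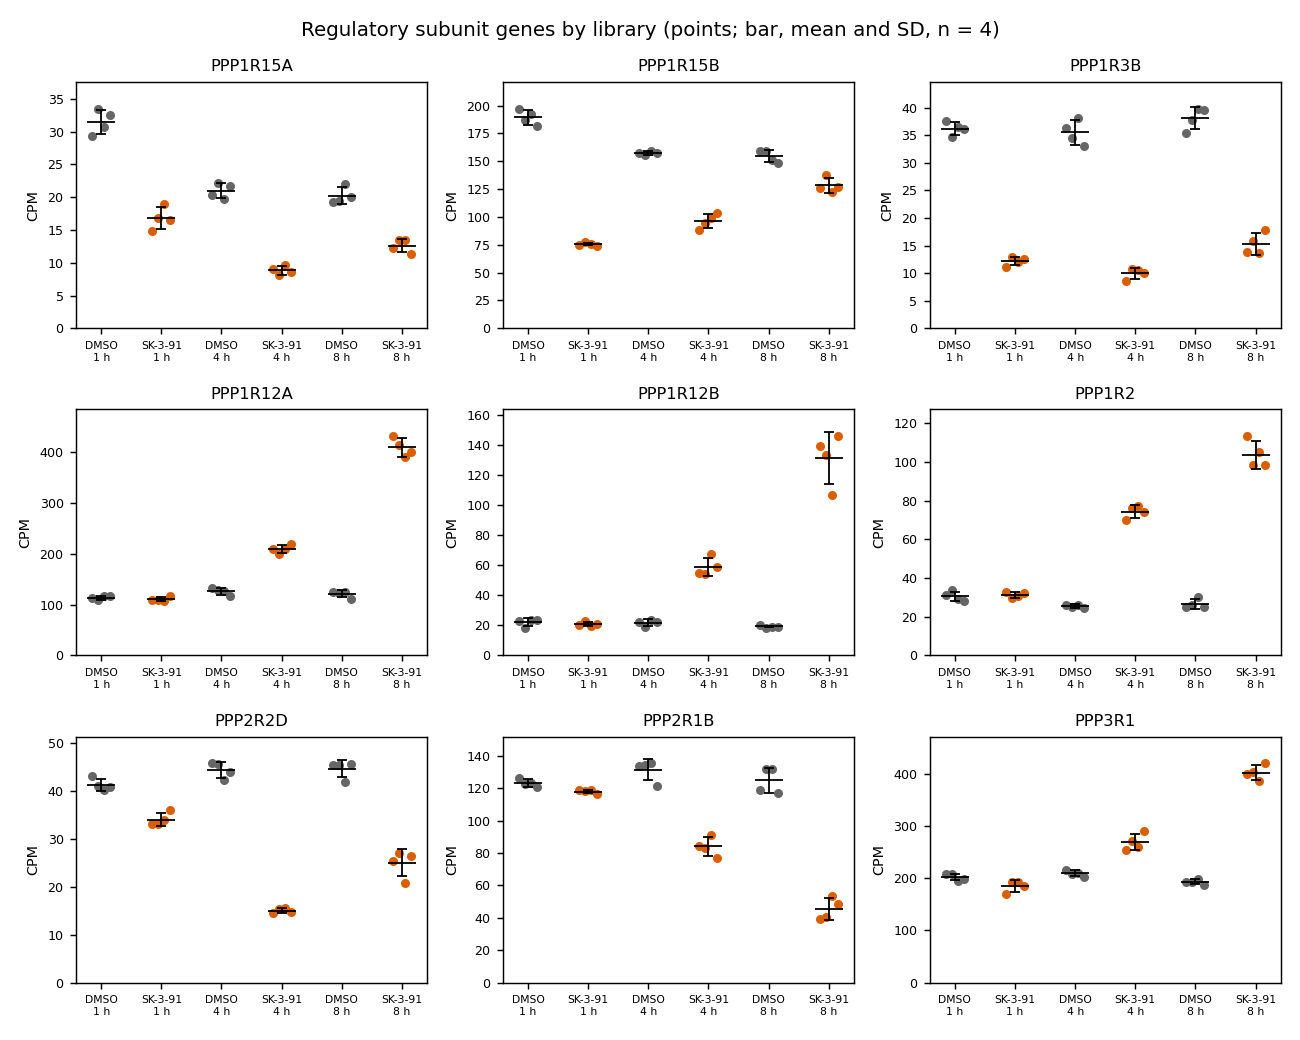
CPM (vertical axis, from 0) of 9 regulatory subunit genes in each library (points) by group, DMSO in grey and SK-3-91 in orange, with mean and SD (bars, n = 4). PPP1R15B drops to 74.3 to 77.2 CPM at 1 h and then climbs, while PPP1R12B, not called at 1 h, reaches 107 to 146 CPM at 8 h.

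The PP2A scaffold genes separated at 4 h and both were lower at 8 h. PPP2R1A, the main scaffold, measured 282.7, 275.3, 257.7 and 279.9 CPM in DMSO and 334.5, 304.2, 312.3 and 312.7 CPM in treated libraries at 1 h. At 4 h it measured 260.8, 274.9, 282.5 and 283.8 against 416.2, 401.1, 369.7 and 378.9 CPM. By 8 h the order had turned, with 272.3, 292.3, 277.2 and 318.5 CPM in DMSO and 210.8, 240.8, 230.7 and 202.2 CPM with SK-3-91. None of the 3 times shows an overlap: the log2 fold changes were 0.21 ± 0.05, 0.51 ± 0.05 and -0.39 ± 0.05 (adjusted p = 4.7e-04, 1.8e-12 and 4.2e-09), and the step between 4 and 8 h was -0.90 ± 0.07 (adjusted p = 2.6e-14).

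PPP2R1B, the other scaffold gene, measured 126.5, 122.6, 123.4 and 120.5 CPM in DMSO and 118.7, 118.1, 118.6 and 116.3 CPM in treated libraries at 1 h, apart by little and not called (adjusted p = 0.32). At 4 h it measured 133.8, 134.1, 135.5 and 121.6 against 84.3, 83.3, 91.2 and 77.1 CPM, and at 8 h 119.1, 131.6, 131.6 and 116.9 against 39.1, 40.4, 53.7 and 48.4 CPM. The fall deepened from -0.64 ± 0.06 to -1.47 ± 0.07 on the log2 scale (2.77-fold lower at 8 h, adjusted p = 2.6e-23). PPP2R1A made up 79.3% to 83.2% of the summed scaffold level per kilobase in DMSO and 88.4% to 91.6% in treated libraries at 8 h.

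PPP2R2D encodes a B55 subunit, the PP2A form that mitotic kinase signalling through MASTL restrains. It fell at 1 h, from 43.0, 41.0, 40.1 and 40.8 CPM in DMSO to 33.0, 33.1, 34.0 and 35.9 CPM, and furthest at 4 h, with 45.8, 45.5, 42.2 and 44.0 against 14.5, 15.3, 15.5 and 14.7 CPM. The log2 fold changes were -0.28 ± 0.05, -1.56 ± 0.07 (2.95-fold lower, adjusted p = 8e-24) and -0.82 ± 0.06 at 1, 4 and 8 h. Part of the 4 h decrease was regained by 8 h, a step of 0.74 ± 0.10 (adjusted p = 1.1e-08).

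The 5 B56 subunit genes, PPP2R5A to PPP2R5E, were lower at 4 h. In edgeR's test 5 were lower there (45.9% of all genes were) and 0 higher, as at an unadjusted p under 0.05, while DESeq2 called 4 lower and 0 higher. They had log2 fold changes from -0.60 ± 0.11 (PPP2R5B) to -0.12 ± 0.04 (PPP2R5C), the latter with libraries that overlap. At 1 h, 3 of them had been slightly higher: PPP2R5A by 0.16 ± 0.05, PPP2R5C by 0.14 ± 0.04 and PPP2R5D by 0.20 ± 0.04. At that time 24.9% of all genes were higher, and DESeq2 called 4 of the 5 B56 genes higher. At 8 h 4 remained lower (48.1% of all genes were), PPP2R5A at -0.68 ± 0.06 and PPP2R5B at -0.69 ± 0.11 furthest. PPP2R5E was higher there by 0.22 ± 0.05 (-0.21 with library totals alone). PPP2R5D makes up 62.5% to 64.5% of the group's summed level per kilobase in DMSO at 8 h. It is uncertain, with 36.0% of its exon bases opposite exons of other genes, chiefly MEA1. The log2 fold changes of MEA1 were 0.22, 0.42 and -0.34. PPP2R3C, a regulatory subunit of another kind, was higher by 0.38 ± 0.06 at 4 h and 0.34 ± 0.06 at 8 h (-0.09 with library totals alone).

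Calcineurin's B chain rose while its main catalytic gene fell. PPP3R1, the calcium-binding regulatory subunit, measured 208.2, 207.5, 195.4 and 198.9 CPM in DMSO and 168.9, 192.8, 192.0 and 185.6 CPM in treated libraries at 1 h. At 4 h it measured 216.3, 209.0, 209.2 and 203.0 against 254.6, 271.7, 260.2 and 290.5 CPM, and at 8 h 193.3, 193.3, 198.7 and 187.5 against 399.1, 403.1, 386.0 and 420.6 CPM. Treated libraries were all below the controls at 1 h and all above them later, with log2 fold changes of -0.13 ± 0.04 (adjusted p = 0.0088; not called without treated replicate 1 or in DESeq2, both -0.09), 0.36 ± 0.04 (adjusted p = 3.6e-10) and 1.06 ± 0.04 (2.08-fold, adjusted p = 1.2e-24). PPP3R1 is uncertain, as 20.8% of its exon bases lie opposite another annotated gene.

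Per kilobase, the ratio of PPP3R1 to the summed PPP3CA, PPP3CB and PPP3CC level was lower with SK-3-91 at 1 h, 2.56 to 2.72 in DMSO and 2.17 to 2.45 in treated libraries, without overlap. It was 2.50 to 2.56 in DMSO and 4.13 to 4.56 in treated libraries at 4 h. At 8 h it was 2.31 to 2.46 against 7.97 to 9.92. This is a ratio of transcript levels and not of protein chains. PPP3CB's share of the 3 catalytic genes was 68.3% to 72.3% in DMSO and 72.5% to 74.5% with SK-3-91 at 1 h, and 70.2% to 72.3% in DMSO and 54.1% to 59.8% with SK-3-91 at 8 h.

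**Figure D5:**
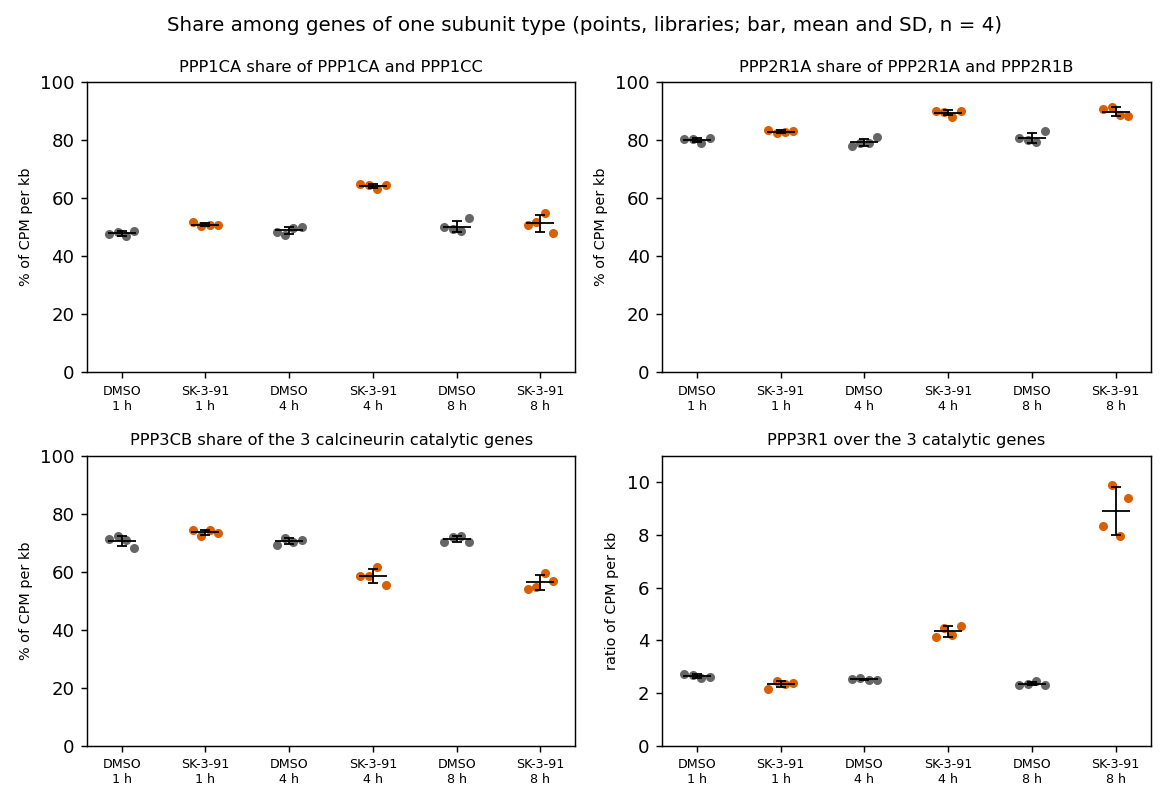
Shares of summed CPM per kb (percent, axis from 0 to 100) and, at lower right, the ratio of PPP3R1 to the 3 calcineurin catalytic genes, in each library (points; DMSO grey, SK-3-91 orange) with mean and SD (bars, n = 4). The ratio rises from 2.36 ± 0.0704 in DMSO to 8.91 ± 0.912 in treated libraries at 8 h, while the PPP1CA share differs at 4 h and overlaps at 8 h.

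PP4 regulatory genes were lower at 4 h. From 4 to 8 h the response was called upward in 3 of the 4 (35.6% of all genes were), PPP4R1 being the exception. In edgeR's test 4 of 4 measured subunit genes were lower at 4 h (45.9% of all genes were) and 0 higher, as at an unadjusted p under 0.05 and in DESeq2, with a median log2 fold change of -0.56. PPP4R3A and PPP4R3B encode the alternative substrate-binding subunits of the PP4 complex. PPP4R3A measured 198.3, 193.2, 193.0 and 180.8 CPM in DMSO and 97.1, 96.1, 89.0 and 100.9 CPM with SK-3-91 at 4 h, 0.501 times the control level (-1.0 ± 0.05, adjusted p = 7.5e-22) and so just short of the 2-fold count above, with -0.34 ± 0.04 at 1 h and -0.26 ± 0.05 at 8 h. PPP4R3B measured 101.1, 96.3, 94.8 and 93.4 CPM in DMSO and 110.6, 107.3, 114.5 and 113.3 CPM in treated libraries at 1 h. Its log2 fold change was 0.21 ± 0.05 at 1 h and -0.51 ± 0.05 at 4 h. At 8 h it was 0.14 ± 0.05 (adjusted p = 0.0071) with libraries that overlap; the call was lost without treated replicate 1 (0.10), and upper-quartile factors (-0.03) and library totals alone (-0.30) turned the sign. PPP4R2 had -0.14 ± 0.06, -0.61 ± 0.06 and -0.22 ± 0.06, its 1 h call lost without DMSO replicate 2, 3 or 4 or treated replicate 1, 2 or 4 (-0.14 to -0.09); DESeq2 called it at neither 1 h (-0.10) nor 8 h (-0.13). PPP4R1 had -0.25 ± 0.04 at 4 h and -0.25 ± 0.05 at 8 h, and the pseudogene PPP4R1L, at 1.79 to 2.52 CPM in DMSO at 4 h, was lower at 1 h only (-0.60 ± 0.14, adjusted p = 5.5e-04).

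The 3 PP6 regulatory genes, PPP6R1 to PPP6R3, were called higher at 4 h by TMM scaling, as were 42.0% of all genes. Their catalytic gene PPP6C was lower there, as were 45.9% of all genes. With library totals alone PPP6R1 and PPP6R3 turned to -0.10 and -0.14. PPP6R2 was higher by 0.83 ± 0.05 at 4 h and 0.93 ± 0.05 at 8 h (1.91-fold, adjusted p = 2.8e-20), after 0.13 ± 0.05 at 1 h (not called without treated replicate 1 or DMSO replicate 1 or 2). PPP6R3 had -0.10 ± 0.04 (not called without DMSO replicate 2 or 3 or treated replicate 1 or 3), 0.16 ± 0.04 and 0.67 ± 0.04, and PPP6R1 0.14 ± 0.03, 0.20 ± 0.04 and -0.11 ± 0.04. DESeq2 did not call PPP6R3 at 1 h (-0.06) or PPP6R1 at 8 h (-0.02).

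The response differed between times for most members. Between 1 and 4 h it differed in 37 of 46 genes (80.4%, and 80.4% of all genes), upward in 17 (40.6% of all genes) and downward in 20 (39.9%), and between 4 and 8 h in 32 (69.6% against 68.6%), upward in 19 (35.6%) and downward in 13 (33.0%). In the later interval it moved down in 5 of 8 catalytic genes and up in 2 (median -0.43), and up in 17 of 37 regulatory genes and down in 8 (median 0.29, all genes 0.01). Members called in opposite directions at 1 and 4 h numbered 10 (21.7% against 9.63% of all genes), and those at 4 and 8 h 6 (13.0% against 8.33%). The first 10 are PPP1R16B, PPP1R37, PPP1R9B, PPP2R5A, PPP2R5C, PPP2R5D, PPP3CB, PPP3R1, PPP4R3B and PPP6R3. Of these 10, DESeq2 had 7 among its own 10, and library totals alone 5 among 8; 7 to 10 members were so called when 1 library was left out, 7 without DMSO replicate 3 or treated replicate 1 of the 1 h groups. For 4 and 8 h, upper-quartile factors and library totals alone gave 3 members in place of 6 (6.52%, against 8.84% and 7.52% of all genes). Called at all 3 times were 23 members (50.0% against 45.6% of all genes). Consecutive differences share the 4 h libraries.

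DMSO alone also moved with culture time. From 1 to 4 h 17 members changed (against 35.1% of all genes), 11 without DMSO replicate 3 of the 4 h group, and from 4 to 8 h 9 changed (against 30.7%). Of the catalytic genes, PPP2CB and PPP3CB were higher at 4 h than at 1 h in DMSO, by 0.24 ± 0.06 and 0.11 ± 0.04. The largest shifts were those of PPP4R1L (-0.97 ± 0.15), PPP1R16B and PPP1R15A from 1 to 4 h, and of PPP1R9B (0.53 ± 0.08) and PPP2R5B (0.44 ± 0.09) from 4 to 8 h.

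Partners of the same phosphatases without a PPP symbol, and the metal-dependent serine/threonine phosphatases, were called in both directions, at 4 and 8 h at about the rate of the whole table. Of 107 listed symbols, aliases included, 84 were measured: 21 rose and 37 fell at 1 h, 35 and 41 at 4 h, and 40 and 36 at 8 h (69.0%, 90.5% and 90.5% called, against 54.3%, 87.9% and 89.4% of all genes). Of all genes, 24.9% were higher and 29.4% lower at 1 h, 42.0% and 45.9% at 4 h, and 41.3% and 48.1% at 8 h. The largest increases at 8 h were those of PPTC7, a mitochondrial phosphatase, at 384.2 against 63.4 CPM (2.60 ± 0.05), CCDC6, a PP4 partner (2.28 ± 0.04), and ELL, a transcription elongation factor (2.18 ± 0.06). The largest decreases were those of CSRNP1 (-2.29 ± 0.25), CSRNP2 (-2.11 ± 0.06) and MASTL (-2.01 ± 0.07), the kinase that acts on the inhibitors of the B55 form of PP2A. CSRNP1 was at a low level, 1.17 CPM in treated libraries against 5.89 CPM in DMSO at 8 h. The order of these 3 genes was not tested. MASTL fell from 69.0 to 17.2 CPM at 8 h, the time at which PPP2R2D had log2 fold change -0.82.

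As a description of gene properties, across the 46 members, Spearman's rho with the 8 h log2 fold change was 0.20 for gene span, 0.00 for the longest transcript, 0.05 for the number of exons and 0.01 for the control level (0.08, 0.05, 0.11 and 0.09 over all genes with a value). At 1 h the longest transcript had rho -0.31 over the members and -0.27 over all genes. These values share the same libraries, and genes are not independent replicates.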

How the data were processed

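RNA from 24 MOLT4 libraries was sequenced in 50-base reads, and the authors deposited raw read counts per gene (9822 genes) with a gene width in bases. A second deposited table, named RPKM by the authors, holds log2 values of scaled counts into which no gene length enters (largest relative gap to a straight line in the count 3.9e-07%). The submitters' processing notes name edgeR and the build hg19; the aligner, counter, strand setting and annotation are not given in the sources used here.

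Counts were tested with edgeR 4.0.16 (R 4.3.3): TMM factors, filterByExpr, 1 mean per group over all 24 libraries, quasi-likelihood F test, Benjamini-Hochberg over all genes at 0.05. CPM are edgeR's cpm values on the TMM-scaled library totals, and CPM per kb divides them by the deposited width. Totals of 6.863 to 14.626 megareads and a biological coefficient of variation of 0.0422 set the precision. On simulated counts for 9822 genes, 75.6%, 73.2% and 68.3% of genes changed by 0.3 on the log2 scale were recovered at 1, 4 and 8 h, and 100% of those changed by 1. False calls were 5.67%, 4.19% and 5.73% of the calls. Few genes were changed there, up or down in a single treated group, whereas 54.3% to 89.4% of all genes were called in the data. How far these rates carry over to the data was not tested.

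Within a group, no library held the same counts as another: the lowest chi-square per gene between replicates was 1.633. Libraries of different groups were not compared in this way. The value cannot tell separate cultures from technical repeats. The members and gene lists were chosen with earlier results of these data known. Values by library are given for catalytic genes called at 4 or 8 h, for the 4 largest increases and decreases among regulatory genes at each time with separate libraries and at least 2 CPM, in the comparisons that picked them, and for PPP1R15A, PPP1R15B, PPP2R1A, PPP2R1B and PPP3R1. Of the partner list, the 3 largest changes each way at 8 h are named. A gene is called uncertain where at least 20% of its 32-base words occur in other genes or of its exon bases lie opposite another gene's exons (GENCODE 29). Alternatives were RLE, upper-quartile and no scaling factors, no filter, a replicate block, a minimum fold of 1.5, only the groups compared, limma 3.58.1 on the deposited log2 values, DESeq2 1.42.0, and leaving out each library.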

Additional observations from a re-analysis of the deposited data

Results flagged for a closer look

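In 10 of 156 groups of 4 libraries 1 library lay far from the other 3 (past Dixon's limit); chance flags about 1 in 20 groups. These were PPP1CC in DMSO at 4 h (replicate 2, 457.3 CPM), PPP1R12A with SK-3-91 at 1 h (replicate 4, 116.8 CPM), PPP1R12B in DMSO at 1 h (replicate 2, 18.2 CPM), PPP1R16B in DMSO at 4 h (replicate 2, 35.3 CPM) and PPP1R21 with SK-3-91 at 8 h (replicate 4, 13.6 CPM). The others were PPP1R37 with SK-3-91 at 1 h (replicate 1, 35.9 CPM) and 4 h (replicate 2, 71.3 CPM), PPP1R9B with SK-3-91 at 4 h (replicate 3, 15.7 CPM), PPP2R1B in DMSO at 4 h (replicate 4, 121.6 CPM) and PPP2R2D in DMSO at 8 h (replicate 3, 41.9 CPM).

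The response to SK-3-91 differed between 1 and 4 h in 37 members and between 4 and 8 h in 32, by a test of the difference itself (edgeR). Among members called in opposite directions at 1 and 4 h, the log2 difference of the response was 0.66 for PPP1R16B, 1.20 for PPP1R37, -0.96 for PPP1R9B, -0.52 for PPP2R5A and -0.26 for PPP2R5C. It was -0.54 for PPP2R5D, -0.79 for PPP3CB, 0.49 for PPP3R1, -0.72 for PPP4R3B and 0.26 for PPP6R3. Among those opposite at 4 and 8 h it was 0.32 for PPP1CC, -0.64 for PPP1R7, -0.90 for PPP2R1A, 0.52 for PPP2R5E, 0.64 for PPP4R3B and -0.31 for PPP6R1.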

How the results depend on the processing

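Requiring a change beyond 1.5-fold, a stricter test by construction, left 0 members higher and 3 lower at 1 h, 8 and 7 at 4 h, and 12 and 9 at 8 h; it left 11 and 8 members with a response that differed between 1 and 4 h and between 4 and 8 h, and 1 and 0 changed in DMSO. With no scaling factors, and with limma-trend on the deposited log2 values, 11 members were higher at 4 h and 12 at 8 h. With no scaling factors the all-gene median shifted by -0.02, -0.30 and -0.43, and with upper-quartile factors by -0.16 at 8 h. With limma-trend, which changes the input values, the scaling and the test together, it moved by -0.18 and -0.21 at 4 and 8 h. Upper-quartile factors gave 14 members higher and 24 lower at 8 h.

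The catalytic median became -0.30 (no scaling) and -0.16 (limma-trend) at 4 h and -0.61 (no scaling) at 8 h. The regulatory median at 1 h became 0.07 with RLE factors and both DESeq2 settings and 0.01 with no scaling and limma-trend. At 4 h it was -0.08 (RLE, DESeq2), -0.18 (upper-quartile), -0.42 (none) and -0.21 (limma-trend), and at 8 h -0.07, -0.33, -0.60 and -0.27 in the same order. The cause was not tested. Without the 7 uncertain members, an alternative chosen after seeing the data that counts 39 genes, 11, 12 and 14 were higher and 10, 21 and 21 lower at 1, 4 and 8 h; the catalytic median became -0.07 and -0.08 and the regulatory median 0.01 and -0.30 at 1 and 4 h.

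Signs turned at 4 h with no scaling for PPP1R16B (-0.003), PPP1R35 (-0.25), PPP1R8 (-0.20), PPP3CC (-0.20), PPP5C (-0.22), PPP6R1 (-0.10) and PPP6R3 (-0.14), and with limma-trend for PPP1R35 (-0.21), PPP1R8 (-0.19), PPP3CC (-0.12), PPP5C (-0.20), PPP6R1 (-0.10) and PPP6R3 (-0.14). At 8 h they turned with no scaling for PPP1CA (-0.19), PPP1CC (-0.25), PPP1R13B (-0.38), PPP1R8 (-0.24), PPP2R3C (-0.09), PPP2R5E (-0.21) and PPP4R3B (-0.30). With limma-trend the values there were -0.19 for PPP1CA, -0.25 for PPP1CC, -0.14 for PPP1R13B, -0.23 for PPP1R8, -0.06 for PPP2R3C, -0.19 for PPP2R5E and -0.27 for PPP4R3B, which upper-quartile factors put at -0.03.

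Leaving out 1 library in turn gave 11 to 15 members higher and 8 to 11 lower at 1 h, 17 to 18 and 21 to 22 at 4 h, and 18 to 19 and 22 to 23 at 8 h. The response differed in 36 to 38 and 31 to 34 members, and 11 to 17 and 6 to 11 members changed in DMSO, the 11 of the first interval being without DMSO replicate 3 at 4 h. Members called in opposite directions numbered 7 to 10 at 1 and 4 h and 5 to 7 at 4 and 8 h. Catalytic medians ranged from -0.03 to 0.01, -0.04 to 0.04 and -0.28 to -0.11, and regulatory medians from 0.03 to 0.05, -0.15 to -0.10 and -0.19 to -0.11.

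Members called in opposite directions, counted under each alternative after seeing the data, became 0 and 0 with the 1.5-fold requirement, and at 4 and 8 h 3 with upper-quartile factors, with no scaling and with limma-trend.

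With the replicate number as a block (replicate block), 18 members were higher at 4 h in place of 17, and 137 of 138 results for single genes kept their side of the threshold. Of 12 pairs of libraries with the same number, 0 had deviations that correlated above 0.1, so the number is not taken to pair them.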
